A study of Mus musculus with 4 samples.

Results

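Lamp5 interneurons are inhibitory neurons that release GABA. The nuclei described here were chosen by their own counts, as the nuclei that held at least 3 UMIs (unique molecular identifiers, each marking 1 counted RNA molecule) of *Gad1* and *Gad2* together and at most 1 UMI of *Slc17a7*. They also had fewer than 5 UMIs of *Sst*, fewer than 3 UMIs of *Vip*, a UMI in fewer than 3 of 6 genes of the *Pvalb* class, and a UMI in at least 3 of 7 panel genes (*Lamp5*, *Ndnf*, *Sv2c*, *Reln*, *Hapln1*, *Pde11a* and *Kit*). This rule found 528 nuclei among 36094 nuclei kept from 36619 deposited barcodes, and 2562 kept nuclei met the *Gad* and *Slc17a7* criteria. The study compared mice homozygous for a floxed *Sel1L* allele (labelled *Sel1L* flox/flox) with mice that carried the same floxed alleles and a Cre transgene driven by the Synapsin I promoter, which is active in postmitotic neurons (labelled *Sel1L* Syn-Cre). The mice were 5 weeks old, and sorted nuclei from hippocampus and cortex were sequenced in 4 libraries, 1 per mouse and 2 per label, with a 10x Genomics 3′ kit. Both alleles of the controls are therefore floxed, and the background is C57BL/6J in both groups. Values per library are given in the order *Sel1L* flox/flox replicates 1 and 2, then *Sel1L* Syn-Cre replicates 1 and 2.

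Lamp5 cells of the cortex and hippocampus include the neurogliaform cells, which release GABA into the surrounding volume and act slowly on many neighbours, and a smaller group that expresses *Lhx6*. SEL1L is the adaptor of the ubiquitin ligase HRD1 in ER-associated degradation (ERAD), which moves misfolded proteins out of the endoplasmic reticulum (ER) for destruction by the proteasome. When unfolded proteins collect in the ER, the sensors IRE1, ATF6 and PERK start the unfolded protein response (UPR), in which XBP1 and cleaved ATF6 induce chaperones and ERAD components, and ATF4 induces CHOP, amino acid transporters and amino acid synthesis.

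The libraries held 154, 123, 129 and 122 Lamp5 interneuron nuclei with 1878636, 1199126, 1360119 and 1316305 UMIs in all. Median UMIs per nucleus were 10386.5, 8285, 9457 and 8943.5. The median share of *Malat1* in these nuclei was 3.56%, 3.95%, 5.69% and 5.06%, higher in both *Sel1L* Syn-Cre libraries, and its part in the results below was not tested. No barcode of these nuclei occurred among them in more than 1 library, although each pair of libraries shared 10 to 34 barcodes over all nuclei. Scrublet marked 11, 7, 3 and 7 of them as doublets, and they were kept unless stated otherwise. *Xist*, expressed from the inactive X chromosome, had 0, 2159, 18 and 2262 UMIs, and the Y-linked gene *Ddx3y* had 95, 0, 74 and 0 UMIs, so that each label held 1 male and 1 female mouse. The replicate number and the sex cannot be told apart.

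*Sel1l*, the targeted gene, had 210, 148, 298 and 253 UMIs in these nuclei. As CPM (UMIs scaled to a common library total) after TMM normalization (trimmed mean of M-values), its levels were 118, 126, 222 and 187 CPM, above both controls in both libraries labelled *Sel1L* Syn-Cre. The log2 fold change was 0.74 ± 0.16 (SE) and did not pass the threshold (edgeR quasi-likelihood test, Benjamini-Hochberg adjusted p = 0.102). Without *Sel1L* flox/flox replicate 1, the adjusted p of *Sel1l* was 0.0230, and it was 0.0413 with the replicate number, which is also the sex, as a block. Where the counted reads lie relative to the floxed part is not given in the sources used here, so these counts do not check the deletion. The Cre transgene had 21, 0, 8 and 11 UMIs in Lamp5 interneuron nuclei and 490, 0, 262 and 260 UMIs in all kept nuclei. The library labelled *Sel1L* flox/flox replicate 1 thus held Cre UMIs at 3.99 CPM over all kept nuclei, against 3.49 and 3.51 CPM in the libraries labelled *Sel1L* Syn-Cre. Every direction below rests on the labels, and the main counts of changed genes are also given without that library. On Western blots of cortex and hippocampus, the study reported lower SEL1L protein in *Sel1L* Syn-Cre mice. By immunofluorescence, it reported loss of SEL1L in only a part of the cortical neurons, and to differing degrees across regions of the hippocampus.

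The rule chose on the panel genes, so their levels are a description. *Lamp5*, a lysosome-associated membrane protein of synaptic vesicles, was at 146, 173, 86.8 and 122 CPM of total UMIs in these nuclei. It was at 5.25 CPM in nuclei gated on the *Pvalb* class, 5.66 CPM in those gated on *Vip* and 3.76 CPM in those gated on *Sst*, all libraries together. *Ndnf*, a secreted factor of layer 1 neurogliaform cells, was at 111, 159, 82.3 and 103 CPM. *Sv2c*, a synaptic vesicle protein, was at 249, 267, 152 and 217 CPM. *Hapln1*, a link protein of the extracellular matrix, was at 168, 171, 86.8 and 109 CPM, and *Pde11a*, a phosphodiesterase, was at 636, 603, 413 and 346 CPM. *Reln*, the secreted glycoprotein reelin, was at 1156, 1456, 851 and 938 CPM, and *Kit*, a receptor tyrosine kinase, at 294, 503, 301 and 335 CPM. Levels of *Lamp5*, *Ndnf*, *Sv2c*, *Hapln1*, *Pde11a* and *Reln* were lower in both libraries labelled *Sel1L* Syn-Cre than in both controls, and those of *Kit* overlapped. Of all genes tested, 19.6% were lower in this way on the TMM scale. Because the rule used these genes, their levels are no result about the label. At the edge of the rule, 138 nuclei had exactly 3 panel genes, and 241 nuclei that met every other criterion had 2 and were left out. Likewise, 37 nuclei had exactly 3 *Gad* UMIs and 17 with 2 were left out, 3 nuclei had 4 *Sst* UMIs and 1 with 5 was left out, 4 nuclei had 2 *Vip* UMIs and 2 with 3 were left out, 77 nuclei had 2 genes of the *Pvalb* class and 10 with 3 were left out, and 55 nuclei had 1 *Slc17a7* UMI and 14 with 2 were left out.

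Genes that the rule did not use were compared with the other interneuron gates. *Id2*, a transcriptional inhibitor, was at 68.7, 89.2, 63.2 and 75.2 CPM in Lamp5 interneuron nuclei and at 10.8 CPM or less in the pooled *Sst*, *Pvalb* and *Vip* gates. *Cplx3*, a complexin, was at 12.8, 12.5, 20.6 and 12.2 CPM and at 1.03 CPM or less in those gates. *Npy*, the gene of neuropeptide Y, was at 84.1, 179, 70.6 and 99.5 CPM, beside 64.9 to 132 CPM in the libraries of the *Sst* gate, so that these ranges overlapped. *Adarb2*, a marker of interneurons born in the caudal ganglionic eminence, was at 6475, 7106, 9325 and 5996 CPM, below every library of the *Vip* gate (13102 to 18692 CPM). *Sncg*, *Cck* and *Cnr1* mark another interneuron class, against which the rule has no criterion. *Sncg* had 1, 0, 2 and 1 UMIs, while *Cnr1* had a UMI in 49.4%, 56.1%, 64.3% and 63.1% of these nuclei. By library, the *Cnr1* share was 14.1 to 17.3% in the *Pvalb* gate, 25.7 to 45.8% in the *Sst* gate and 77.8 to 83.7% in the *Vip* gate. Of the 5 genes listed for Cajal-Retzius cells, *Trp73*, *Lhx1* and *Lhx5* had no UMI. The other 2 had 2, 2, 7 and 5 UMIs in sum, led by *Slc17a6*.

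**Figure D1:**
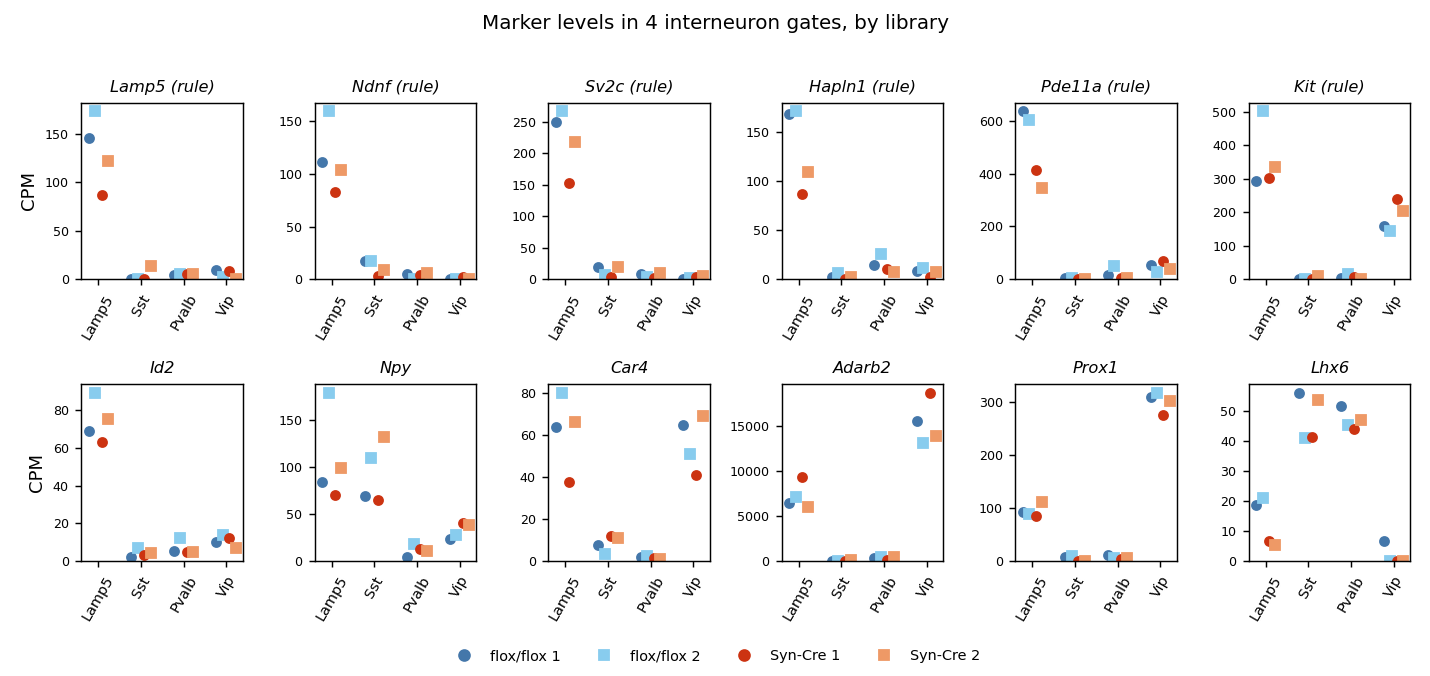
Levels of 12 genes in nuclei of the Lamp5, Sst, Pvalb and Vip gates, in CPM of the gate's total UMIs (vertical axis, from 0), with 1 point per library; genes marked as rule were used to choose the Lamp5 nuclei. *Lamp5* itself lies between 86.8 and 173 CPM in the Lamp5 gate, and *Lhx6* is lower in both Syn-Cre libraries of that gate.

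The nuclei were not uniform. Leiden clustering of the 528 nuclei, with all genes but the sex-linked ones, gave 7 clusters, and their genes are a description because the same counts made the clusters. Cluster 1 (124 nuclei) was led by *Npy* and *Htr1f* and had *Car4* among its 10 leading genes. Clusters 2 (116 nuclei) and 6 (53 nuclei) had the highest *Reln* and *Ndnf*, at 2496 and 2561 CPM of *Reln*. Cluster 2 was led by *Dock5* and *Sema3e* and had *Derl3* among its 10 leading genes, and it held 19, 23, 35 and 39 nuclei per library. Cluster 6 held 19, 23, 6 and 5. Cluster 3 (95 nuclei) was led by *Mctp2*, *Cntnap4*, *Sfta3-ps* and *Lhx6*, and *Nkx2-1* was at 18.1 CPM there. Clusters 4 (58 nuclei) and 5 (57 nuclei) had the highest *Adarb2* and *Cnr1*. Cluster 5 had a median of 15960 UMIs, held 12 of the nuclei that Scrublet marked, and had *Lamp5* at 16.0 CPM. Cluster 7 (25 nuclei, with 10, 1, 6 and 8 per library) was led by *Ankfn1* and *Ano2* and had *Meis2* among its 10 leading genes. It had *Adarb2* at 57.7 CPM and no *Id2*, *Npy* or *Kit* UMI, which goes against the label of the whole set, and nuclei with 3 or more *Meis2* UMIs were left out as an alternative. Cluster sizes are given as counts and were not compared between the labels, because genes that differ between the labels made the clusters.

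The share of Lamp5 interneuron nuclei among the *Gad*-positive nuclei was 16.9% in *Sel1L* flox/flox replicate 1 (95% Wilson interval 14.6 to 19.5%, 154 of 911), 23.3% in replicate 2 (19.9 to 27.1%, 123 of 528), and 23.0% (19.7 to 26.7%, 129 of 561) and 21.7% (18.5 to 25.3%, 122 of 562) in the *Sel1L* Syn-Cre libraries. These intervals cover counting error only. The means were 20.1% ± 4.52 and 22.4% ± 0.910 (SD, n = 2 mice each), and the groups overlapped (two-sided exact permutation test, p = 1). With 2 mice per group this test cannot give a p-value under 0.33. As a share of all kept nuclei, the values were 1.25%, 1.46%, 1.60% and 1.69%, and the groups did not overlap (exact permutation p = 0.33, the smallest possible). With at least 4 panel genes required, these shares were 0.963%, 1.23%, 1.004% and 1.19%, and the groups overlapped. The oligodendrocyte gate of the kept nuclei was smaller in both libraries labelled *Sel1L* Syn-Cre, with 1994, 1222, 388 and 372 of 12362, 8436, 8065 and 7231 kept nuclei, and the part of this in the share was not tested.

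Which genes differed between the labels was tested on UMIs summed per library over the Lamp5 interneuron nuclei (edgeR quasi-likelihood test, TMM, adjusted p below 0.05). Of 11026 genes tested, 20 passed (0.181%), of which 10 were higher (0.0907%) and 10 were lower (0.0907%) in the libraries labelled *Sel1L* Syn-Cre. The 10 higher genes were the ERAD components *Derl3* and *Herpud1*, the chaperones *Hspa5*, *Hsp90b1* and *Dnajc3*, the secreted factor *Manf*, the transcription factors *Ddit3* and *Creb3l2*, the lipid carrier *Stard5* and the calcium-binding protein *Nucb2*. The 10 lower genes included the oligodendrocyte genes *Mbp*, *St18* and *Gjc3*, and *Vcan*, *Nxph1*, *Sgcz*, *Crispld1*, *Adcy1* and *Mpdz*. At an unadjusted p below 0.05 there were 528 higher (4.79%) and 518 lower genes (4.70%). This test covers both directions, so 5% is its nominal rate for higher and lower genes together. The count depended on the filter for low counts, since no gene passed when all 20830 genes with a UMI were tested (1583 at an unadjusted p below 0.05). DESeq2 called 51 genes and gave an adjusted p to 1850 genes, among them 7 of these 20, all of which passed. The other 13 were left without an adjusted p by its filter on low counts. Without the nuclei that Scrublet marked, 6 of the 20 passed and no other gene. There the log2 fold changes of the higher genes that did not pass were 1.96 for *Ddit3*, 1.67 for *Stard5*, 1.54 for *Hspa5*, 1.58 for *Nucb2* and 1.11 for *Manf*. With the replicate number, which is also the sex, as a block, 123 genes passed (54 higher and 69 lower), all 20 among them. Without *Sel1L* flox/flox replicate 1, 299 genes passed, all 20 among them.

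**Figure D2:**
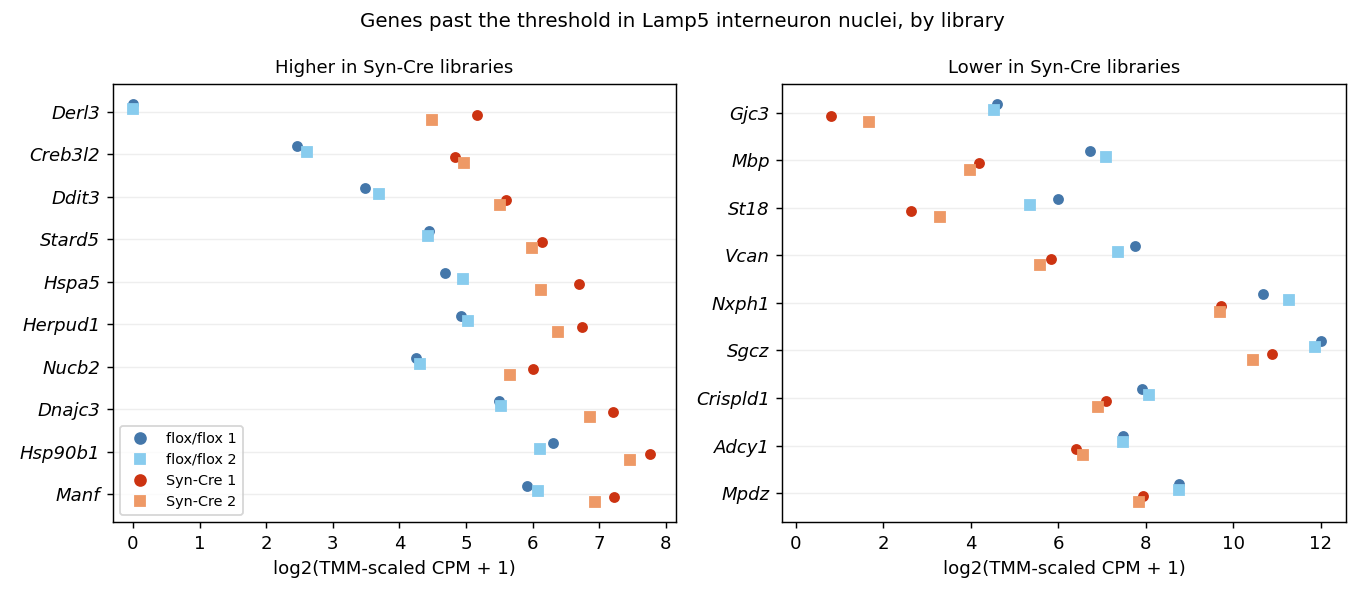
Levels of 19 of the 20 genes past the threshold in Lamp5 interneuron nuclei, as log2 of the TMM-scaled CPM plus 1 (horizontal axis), with 1 point per library; higher genes are on the left and lower genes on the right, each ordered by fold change. For every gene shown, both Syn-Cre libraries lie on the same side of both flox/flox libraries, and *Derl3* is at 0 in both flox/flox libraries.

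*Derl3* encodes a derlin, a membrane protein of the channel through which ERAD substrates leave the ER. It had 0, 0, 47 and 29 UMIs, or 0, 0, 35.0 and 21.5 CPM (TMM-scaled, as are all CPM in this and the next 3 paragraphs). Because no UMI was seen in 277 control nuclei, its level was at least 27.7-fold higher in the libraries labelled *Sel1L* Syn-Cre, set against 3 UMIs over the control group on the same scale (adjusted p = 0.0120). *Herpud1*, which encodes the HERP protein of the HRD1 complex, was at 29.3, 31.6, 106 and 82.2 CPM, a log2 fold change of 1.63 ± 0.20 (SE, adjusted p = 0.0130). The control values lay close together, and the lower *Sel1L* Syn-Cre value exceeded both. *Syvn1*, which encodes HRD1 itself, was at 10.7, 16.2, 23.1 and 23.0 CPM, with a log2 fold change of 0.81 ± 0.32 that did not pass (adjusted p = 0.443). Of the 24 genes of the ERAD list, all tested, 2 were higher and none was lower at the threshold, 8 and 1 were so at an unadjusted p below 0.05, and the median log2 fold change was 0.28, beside 0.01 over all genes tested. *Derl1*, *Os9*, *Edem2* and *Selenos* were among the 8, while over all genes tested 4.79% were higher and 4.70% lower at that p.

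Chaperones and folding enzymes of the ER formed the list with the most genes past the threshold. *Hspa5*, which encodes BiP, the HSP70 of the ER, was at 24.8, 29.9, 102 and 68.9 CPM (log2 fold change 1.66 ± 0.24, adjusted p = 0.0303). *Hsp90b1*, the HSP90 of the ER, was at 77.8, 68.3, 216 and 176 CPM (1.42 ± 0.17, adjusted p = 0.0120). *Dnajc3*, a co-chaperone of BiP, was at 44.0, 45.2, 147 and 116 CPM (1.56 ± 0.19, adjusted p = 0.0120). For all of these the groups did not overlap, and the value of *Sel1L* Syn-Cre replicate 1 was the highest. *Manf*, a secreted protein that binds BiP, was at 59.2, 66.6, 148 and 121 CPM (1.10 ± 0.18, adjusted p = 0.0466), and it missed the threshold with the legacy test (adjusted p = 0.0533), without the nuclei that Scrublet marked (0.0857), in nuclei with no *Lhx6* UMI (0.0737) and in those with fewer than 2 *Cnr1* UMIs (0.0678). *Hspa5* and *Ddit3* also missed it in the latter nuclei (log2 fold changes of 1.65 and 1.72, adjusted p of 0.0678 and 0.0770). *Nucb2* missed it in those with no *Lhx6* UMI (log2 fold change 1.49, adjusted p = 0.0737). In the settings where *Manf* missed it, its log2 fold change lay between 1.02 and 1.11. *Hyou1*, a nucleotide exchange factor of BiP, was at 10.1, 6.83, 43.2 and 28.1 CPM and *Sdf2l1*, a component of BiP complexes, was at 1.13, 1.71, 20.9 and 10.4 CPM, and both missed the threshold (adjusted p = 0.0641 and 0.0654). Of 27 listed genes, 26 were tested, 4 were higher and none was lower at the threshold, and the median log2 fold change was 0.89. At an unadjusted p below 0.05, 19 were higher and none lower, beside 4.79% and 4.70% of all genes tested. For 21 of the 26, both *Sel1L* Syn-Cre values lay above both control values, which was so for 19.8% of all genes tested.

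Among the regulators, *Ddit3*, which encodes the transcription factor CHOP, was at 10.1, 11.9, 47.7 and 44.4 CPM (log2 fold change 2.07 ± 0.26, adjusted p = 0.0130). A second feature of the same name overlaps it, as does *Mars*, so its reads could be split. *Creb3l2*, a transcription factor anchored in the ER membrane until it is cleaved, was at 4.51, 5.12, 27.6 and 30.4 CPM (2.58 ± 0.35, adjusted p = 0.0183). Its log2 fold change was 3.46 without the nuclei that Scrublet marked and 4.31 among members with at most 1 UMI of the 8 oligodendrocyte markers, and with at least 4 panel genes required it was 2.49 and did not pass (adjusted p = 0.0775). In the control oligodendrocyte gates, 28.9% and 22.1% of nuclei had a *Creb3l2* UMI. *Xbp1*, the substrate of IRE1, was at 23.7, 27.3, 44.0 and 48.2 CPM (0.86 ± 0.22, adjusted p = 0.198), which counts all its transcripts and not their splicing. *Atf4* was at 24.2, 25.6, 28.3 and 28.1 CPM (0.18 ± 0.24, adjusted p = 0.886). Of 20 UPR regulators, 14 were tested, and 2 were higher and none lower at the threshold, beside 0.0907% of all genes tested each way. At an unadjusted p below 0.05, 5 were higher and none lower, beside 4.79% and 4.70% of all genes tested. The median log2 fold change of this list was 0.40, beside 0.01 over all genes tested. Outside the lists, *Stard5*, which carries cholesterol between membranes, was at 20.9, 20.5, 69.3 and 62.2 CPM (1.66 ± 0.21, adjusted p = 0.0130), and *Nucb2*, the precursor of nesfatin, was at 18.04, 18.8, 63.3 and 49.6 CPM (1.62 ± 0.24, adjusted p = 0.0319). *Stard5* overlaps *Il16* and *Manf* overlaps *Rbm15b*, *Dcaf1* and 2 other features, and how reads in overlaps were counted is not given in the sources used here.

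No gene of the lists further along these pathways passed the threshold. At an unadjusted p below 0.05, 4.79% of all genes tested were higher and 4.70% lower. Of 35 genes of ER entry and transport, 34 were tested and none passed, while 11 were higher and none lower at an unadjusted p below 0.05 (median log2 fold change 0.40). Of 27 targets of ATF4, 19 were tested and none passed, with 12 higher and none lower at an unadjusted p below 0.05 (median 0.69). *Slc7a11*, the cystine transporter, had the lowest adjusted p of this list (0.0641) at 14, 1, 73 and 41 UMIs. None of 20 cytosolic aminoacyl-tRNA synthetases passed (median 0.28, 5 higher at an unadjusted p below 0.05). Of 13 genes of serine and folate (one-carbon) metabolism, 10 were tested and none passed (median 0.69, 5 higher at an unadjusted p below 0.05). *Mthfd2*, a mitochondrial folate enzyme, was at 31.0, 25.6, 55.1 and 39.3 CPM (log2 fold change 0.72 ± 0.25, adjusted p = 0.360), and *Psat1*, of serine synthesis, was at 7.33, 5.12, 14.2 and 15.6 CPM (1.20 ± 0.40, adjusted p = 0.344). *Phgdh*, the first enzyme of serine synthesis, had 7, 8, 10 and 12 UMIs and was too low to be tested. The values of *Mthfd2* and *Psat1* did not overlap between the labels, which was so for 19.8% of all genes in this direction.

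**Figure D3:**
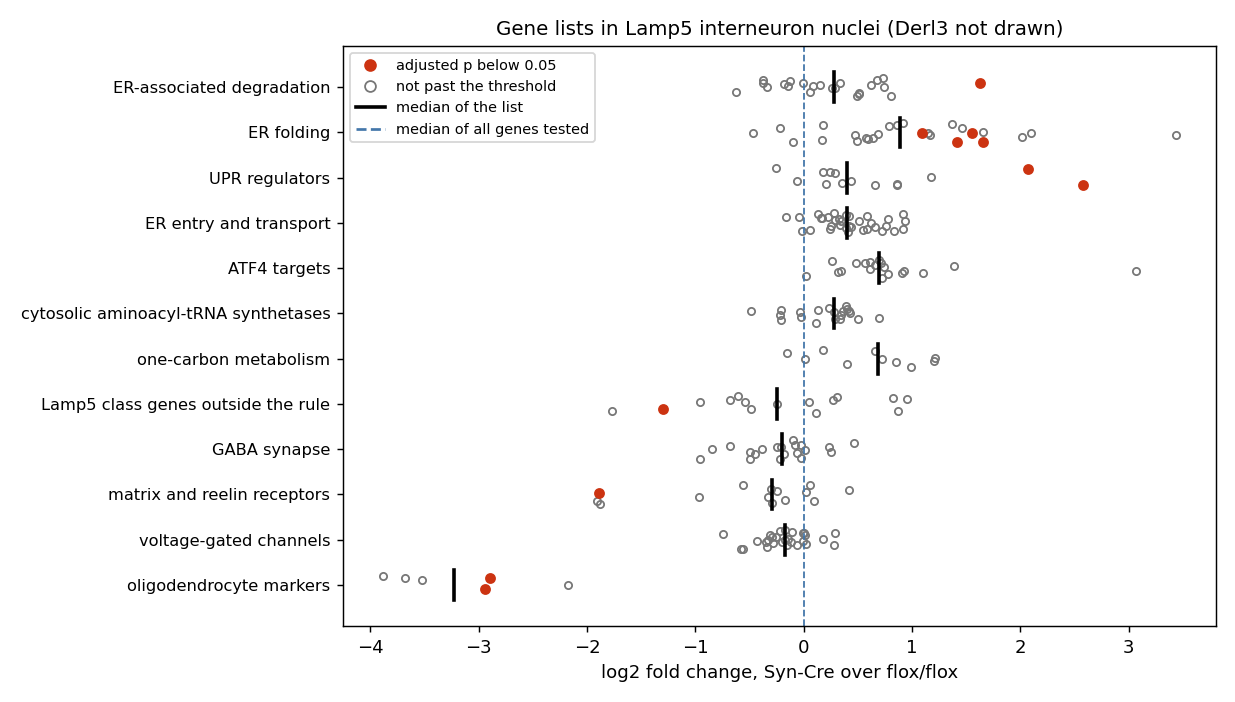
Log2 fold changes in Lamp5 interneuron nuclei of the tested genes of 12 lists (horizontal axis), with 1 point per gene, filled where the adjusted p is below 0.05; black bars are list medians and the dashed line is the median of all 11026 genes. ER folding has a median of 0.89, oligodendrocyte markers one of -3.23, and *Derl3*, absent from the controls, is not drawn.

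Promoters were searched for elements known from the UPR, and the stretches shown are those of the higher genes that hold one. The windows come from RefSeq (GRCm38.p6, 250 bases before to 50 bases after each gene start), which listed 9 of the 10 higher genes and 4 of the 10 lower ones. Motifs were searched on both strands. The ER stress response element, CCAAT and CCACG with any 9 bases between them, occurred in 39 of 32851 windows (0.119%) and in 4 of those 9 higher genes. The related element, ATTGG and CCACG with any 1 base between them, occurred in 12 windows (0.0365%) and in 1 of the 9, and both end in the same 5 letters. Below, the stretches are printed 5′ to 3′ on the strand of the gene, with the match in capitals, and where the match lies on the opposite strand its reverse complement is in capitals.
*Derl3* (chr10:75893202-75893300, plus strand, opposite-strand match): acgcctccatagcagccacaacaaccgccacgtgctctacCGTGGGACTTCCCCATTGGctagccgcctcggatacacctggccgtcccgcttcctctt
*Hspa5* (chr2:34771985-34772083, plus strand): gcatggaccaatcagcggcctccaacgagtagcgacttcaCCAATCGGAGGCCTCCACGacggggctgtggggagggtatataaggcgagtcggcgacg
*Dnajc3* (chr14:118937787-118937885, plus strand): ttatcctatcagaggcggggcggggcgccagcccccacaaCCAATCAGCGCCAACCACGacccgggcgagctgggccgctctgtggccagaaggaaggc
*Hsp90b1* (chr10:86705598-86705694, minus strand): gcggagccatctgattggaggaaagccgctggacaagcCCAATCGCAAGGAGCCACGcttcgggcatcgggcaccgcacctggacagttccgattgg
*Hsp90b1* (chr10:86705493-86705591, minus strand, opposite-strand match): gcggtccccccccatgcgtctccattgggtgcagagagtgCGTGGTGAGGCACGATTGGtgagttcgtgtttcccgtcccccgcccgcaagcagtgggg
*Herpud1* (chr8:94386337-94386427, plus strand, the related element): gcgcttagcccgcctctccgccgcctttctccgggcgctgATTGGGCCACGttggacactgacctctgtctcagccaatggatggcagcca

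The matches ended 47 bases before the gene start in *Hspa5*, 42 in *Herpud1*, 87 in *Dnajc3*, 138 in *Derl3*, and 194 and 89 in *Hsp90b1*. None of the 4 lower genes with a window held either element. The letters TGATGNAAT, searched for sites of ATF4 with its partner C/EBP, and TGACGTGG, searched for sites of ATF6 and XBP1, occurred in 0.965% and 0.676% of all windows. Neither occurred in the windows of the 9 higher and 4 lower genes that had one, and the other genes were not searched. The reverse complement of TGACGTGG begins with CCACG, so it can overlap the end of the ER stress response element. A match describes the letters of the window and not binding.

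How the rise was spread over nuclei was read from the UMIs of the 51 genes of the ERAD and ER folding lists, with each nucleus thinned to 2000 UMIs. The median was 4, 4, 6 and 6 UMIs per nucleus, and the 90th percentile was 7, 7, 12 and 10.9. The 10th percentile was 2 UMIs in each library. At least 10 of 2000 UMIs were found in 0, 2, 33 and 19 nuclei, which is 0%, 1.63%, 25.6% and 15.6%. The upper part of the distribution thus lay higher in the libraries labelled *Sel1L* Syn-Cre, and its lower end overlapped that of the controls.

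**Figure D4:**
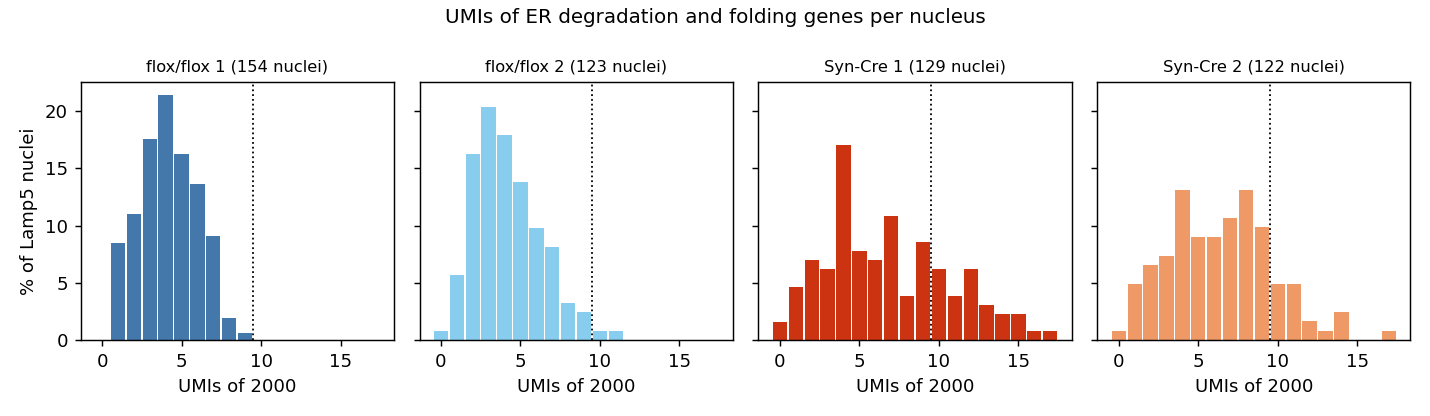
Share of Lamp5 interneuron nuclei (vertical axis, percent) by the number of UMIs of 51 ERAD and ER folding genes among 2000 UMIs drawn from each nucleus (horizontal axis), with 1 panel per library; the dotted line marks 10 UMIs. The Syn-Cre panels hold 25.6% and 15.6% of nuclei at or right of the line, and the flox/flox panels 0% and 1.63%.

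*Derl3* UMIs were found in 0 of 154 and 0 of 123 control nuclei, which allows shares of up to 1.95% and 2.44% of nuclei with a UMI (3 counts of the total), and in 33 of 129 (25.6%, 95% Wilson interval 18.8 to 33.7%) and 22 of 122 (18.03%, 12.2 to 25.8%) nuclei labelled *Sel1L* Syn-Cre. After thinning to 2000 UMIs, which left out none of these nuclei, the shares were 0%, 0%, 5.43% and 5.74%. In the *Sel1L* Syn-Cre libraries, the thinned shares were 16.7% and 14.3% in the *Sst* gate (4 of 24 and 5 of 35 nuclei, median depth 13308 and 10819 UMIs). In the *Pvalb* gate they were 10.1% and 6.67% (12 of 119 and 10 of 150 nuclei, 12264 and 12601 UMIs). Both gates lay above Lamp5 interneuron nuclei, whose thinned shares rest on 7 of 129 and 7 of 122 nuclei. Thinning was 1 random draw per nucleus, and differences between gates were not tested. The thinned shares were 5.08% and 0.654% in the oligodendrocyte gate (2910 and 2702.5 UMIs), 1.91% and 1.09% in the excitatory gate (13210 and 13617.5 UMIs) and 0% in both libraries of the *Vip* gate (9517 and 8591 UMIs). Thinning left 315 of 388 and 306 of 372 nuclei in the oligodendrocyte gate. At 4000 UMIs, which left 102 and 62 of these nuclei, the shares were 14.7% and 8.06% in the oligodendrocyte gate and 12.5% and 14.2% in Lamp5 interneuron nuclei. The *Vip* gate had 1 *Derl3* UMI over its 94 nuclei in these libraries. In the 2 control libraries, the shares at 2000 UMIs were 0% and 0% in the *Sst* and *Vip* gates and 0.505% and 0% in the *Pvalb* gate. They were 0.0717% and 0.213% in the excitatory gate and 0.110% and 0.210% in the oligodendrocyte gate of the controls. In the Lamp5 interneuron nuclei of the *Sel1L* Syn-Cre libraries, those with a *Derl3* UMI had the other 50 genes of both lists at 4662 and 4059 CPM of total UMIs, and those without one had them at 2742 and 2818 CPM. The controls were at 2073 and 2072 CPM, below both. By cluster, the 51 genes were at 5028 and 4323 CPM in cluster 2 and 4675 and 3799 CPM in cluster 3 of the *Sel1L* Syn-Cre libraries, beside 2079 and 1855 CPM, and 2072 and 2156 CPM, in the controls. In cluster 1, led by *Npy*, they were at 2691 and 2518 CPM beside 2096 and 2267 CPM, in cluster 4 at 2376 and 2086 CPM beside 1745 and 1984 CPM, in cluster 5 at 2656 and 2897 CPM beside 2060 and 2033 CPM, and in cluster 6 at 2571 and 2353 CPM beside 2011 and 1929 CPM. In cluster 7, with *Meis2* among its leading genes, they were at 2227 and 1927 CPM beside 2300 and 2455 CPM (10 and 1 control nuclei). These values are a description, since ER genes helped to form the clusters.

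Of the lower genes, *Vcan*, which encodes the matrix proteoglycan versican, was at 214, 165, 55.9 and 46.7 CPM (TMM-scaled; log2 fold change -1.89 ± 0.19, adjusted p = 0.00456). The highest *Sel1L* Syn-Cre value was well below the lowest control value. By cluster, as CPM of total UMIs and as a description, *Vcan* was at 291, 243, 41.1 and 24.8 CPM in cluster 2 and at 449, 384, 120 and 98.3 CPM in cluster 3. In cluster 6 it was at 148, 217, 149 and 228 CPM, in cluster 1 at 24.7, 68.2, 63.2 and 27.5 CPM and in cluster 4 at 26.2, 7.38, 75.9 and 108 CPM. It was at 103, 13.3, 27.2 and 11.996 CPM in cluster 5 and at 42.1, 175, 0 and 6.22 CPM in cluster 7 (with 1 nucleus in *Sel1L* flox/flox replicate 2), so that only some clusters had lower values, and the clusters held different shares of each library. *Nxph1*, a secreted ligand of alpha-neurexins, was at 1646, 2464, 846 and 827 CPM (-1.30 ± 0.20, adjusted p = 0.0351). By cluster, again as a description, it was lower in both *Sel1L* Syn-Cre libraries than in both controls in clusters 1, 2, 3, 5 and 6. It overlapped in cluster 4 (78.5, 302, 206 and 186 CPM of total UMIs) and cluster 7 (78.9, 175, 125 and 93.3 CPM). *Sgcz*, the dystrophin-associated zeta-sarcoglycan, was at 4106, 3749, 1890 and 1387 CPM (-1.26 ± 0.19, adjusted p = 0.0351). *Crispld1*, a secreted cysteine-rich protein, was at 240, 268, 135 and 119 CPM (-1.002 ± 0.15, adjusted p = 0.0351). Over all Lamp5 interneuron nuclei the groups did not overlap for any of these genes, as for 19.6% of all genes in this direction. *Adcy1*, the adenylyl cyclase stimulated by calcium and calmodulin, was at 178, 178, 84.2 and 94.1 CPM (-0.996 ± 0.15, adjusted p = 0.0362). *Mpdz*, a scaffold protein with many PDZ domains, was at 435, 429, 246 and 228 CPM (-0.87 ± 0.14, adjusted p = 0.0466). *Vcan* was the 1 of 14 tested genes of the matrix and reelin receptor list to pass (23 listed, median -0.30), and *Nxph1* the 1 of 15 tested class genes outside the rule (20 listed, median -0.25). *Nxph1* is also a gene of the *Lhx6* lineage, whose other markers *Lhx6* (35, 25, 9 and 7 UMIs, adjusted p = 0.104) and *Nkx2-1* (13, 4, 2 and 0 UMIs, not tested) did not pass. In the 482 nuclei with no *Lhx6* UMI, *Vcan*, *Nxph1*, *Sgcz*, *Crispld1* and *Adcy1* passed and *Mpdz* did not (adjusted p = 0.0539). This choice left out 21, 11, 7 and 7 nuclei, while cluster 3, with *Lhx6* among its leading genes, held 45, 19, 14 and 17. It therefore did not remove that cluster, and the part of the cluster in these changes was not tested. With at least 4 panel genes required, *Crispld1*, *Adcy1* and *Mpdz* did not pass (adjusted p of 0.0570, 0.0743 and 0.0574). Their log2 fold changes there were -0.95, -0.83 and -0.82. *Mpdz* also missed the threshold with the legacy test (adjusted p = 0.0533). *Vcan* alone of these 6 genes passed without the nuclei that Scrublet marked, although the log2 fold changes of the others stayed between -1.30 (*Nxph1*) and -0.91 (*Mpdz*). Without *Sel1L* Syn-Cre replicate 2, only *Vcan* and *Adcy1* passed (adjusted p of 0.0666 for *Nxph1* and 0.172 for *Sgcz*). In nuclei with fewer than 2 *Cnr1* UMIs, *Vcan* and *Sgcz* passed, and *Nxph1* had a log2 fold change of -0.88 (adjusted p = 0.131) and *Crispld1* one of -0.62 (adjusted p = 0.191).

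The lower genes *Mbp*, *St18* and *Gjc3* are abundant in oligodendrocytes. *Mbp*, which encodes myelin basic protein, was at 105, 135, 17.1 and 14.8 CPM in Lamp5 interneuron nuclei (log2 fold change -2.89 ± 0.22, adjusted p = 0.00106). *St18* was at 63.1, 40.1, 5.22 and 8.89 CPM, and *Gjc3*, a connexin, had 41, 26, 1 and 3 UMIs. All 6 tested oligodendrocyte markers of the 8 listed were lower at an unadjusted p below 0.05, beside 4.70% of all genes tested. None of the 8 was at 0 throughout. The 8 together were at 268, 273, 40.4 and 34.9 CPM of total UMIs, with *Mbp* the most abundant. Among members with at most 1 UMI of these 8 genes (117, 100, 122 and 112 nuclei), *Mbp* had a log2 fold change of 0.07, *Mbp* and *St18* did not pass, *Gjc3* was too low to be tested, and 16 of the 20 genes did. That choice of nuclei limits *Mbp* itself. Without the nuclei that Scrublet marked, the log2 fold change of *Mbp* was -1.23 (adjusted p = 0.381) and that of *St18* was -0.75 (adjusted p = 0.754). OPC markers, of oligodendrocyte precursors, had 30, 16, 1 and 7 UMIs in sum, led by *Sox10*. Astrocyte markers were at 204, 227, 249 and 248 CPM in sum, microglia markers at 94.7, 90.1, 72.8 and 75.2 CPM, and excitatory markers at 320, 339, 320 and 396 CPM, with none of the tested genes past the threshold.

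Genes of inhibitory signalling came next. None of 20 GABA synapse genes passed (median log2 fold change -0.20). At an unadjusted p below 0.05, 1 was higher and 5 were lower, beside 4.79% and 4.70% of all genes tested. *Gabrg3*, a GABA-A receptor subunit, was at 3718, 2355, 1786 and 1602 CPM (TMM-scaled, adjusted p = 0.190). None of 28 tested voltage-gated channel genes passed (29 listed, median -0.17, 6 lower at an unadjusted p below 0.05, beside the same 4.70%). *Cnr1*, the cannabinoid receptor, was at 159, 207, 395 and 274 CPM (adjusted p = 0.136) and *Cck* at 26.5, 37.5, 73.8 and 48.9 CPM (adjusted p = 0.231). Neither overlapped between the labels, which was so for 19.8% of all genes in this direction. None of 5 tested immediate early genes passed.

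Whether the effect differed from that of other interneurons was tested as the interaction of class and label, with library as a block. The compared gates held 33, 21, 24 and 35 *Sst* nuclei, 198, 139, 119 and 150 *Pvalb* nuclei and 64, 42, 49 and 45 *Vip* nuclei, from the same 4 libraries. Against *Pvalb* nuclei, 41 of 12444 genes passed (0.329%, with 8.38% at an unadjusted p below 0.05, and 4 genes with DESeq2), of which 28 had a higher (0.225%) and 13 a lower (0.104%) fold change in Lamp5 interneuron nuclei. Against *Vip* nuclei, 2 of 10633 passed (0.0188%), 1 in each direction (0.0094%, and 0 with DESeq2), of which the lower was *Reln*, a gene that the rule used and for which this is no result, with 6.61% at an unadjusted p below 0.05. Against *Sst* nuclei, 0 of 10577 passed with edgeR and 0 with DESeq2, with 732 (6.92%) at an unadjusted p below 0.05 in edgeR, and 12 passed after thinning all gates to the same total. Without *Sel1L* flox/flox replicate 1, 69 genes passed against *Pvalb*, 4 against *Vip* and 0 against *Sst* nuclei. The *Sst* and *Vip* gates held fewer nuclei than the *Pvalb* gate.

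The log2 fold change of *Sel1l* was smaller in Lamp5 interneuron nuclei than in *Pvalb* nuclei, by -0.98 ± 0.18 (SE, adjusted p = 0.0183), with values of 0.74 and 1.78 in the separate fits. Against *Vip* nuclei, where its log2 fold change was -0.64, the difference was 1.41 ± 0.28 and did not pass (adjusted p = 0.136). None of the 10 higher genes passed in this interaction. *Dnajc3*, for example, had log2 fold changes of 1.56 ± 0.19 in Lamp5 interneuron nuclei and 2.46 ± 0.21 in *Pvalb* nuclei (difference -0.85 ± 0.22, adjusted p = 0.136), and *Hspa5* 1.66 ± 0.24 and 2.50 ± 0.26 (difference -0.77 ± 0.25, adjusted p = 0.298). *Creb3l2* went the other way, with 2.58 ± 0.35 and 1.24 ± 0.16 (difference 1.40 ± 0.37, adjusted p = 0.136). Its control levels differed, since 145 and 83 UMIs were found in control *Pvalb* nuclei and 8 and 6 in control Lamp5 interneuron nuclei. Medians of the ER folding list were 0.89 in Lamp5 interneuron nuclei, 1.56 in *Sst*, 1.57 in *Pvalb* and 0.08 in *Vip* nuclei, over 26, 23, 26 and 16 tested genes, of which 4, 8, 22 and 0 passed in each class alone. Over all genes, 20 of 11026, 40 of 6625, 410 of 11707 and 3 of 6896 passed in these fits. The ATF4 targets had medians of 0.69, 1.32, 1.13 and -0.35, over 19, 14, 24 and 10 genes. These differences between classes were not tested as lists.

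**Figure D5:**
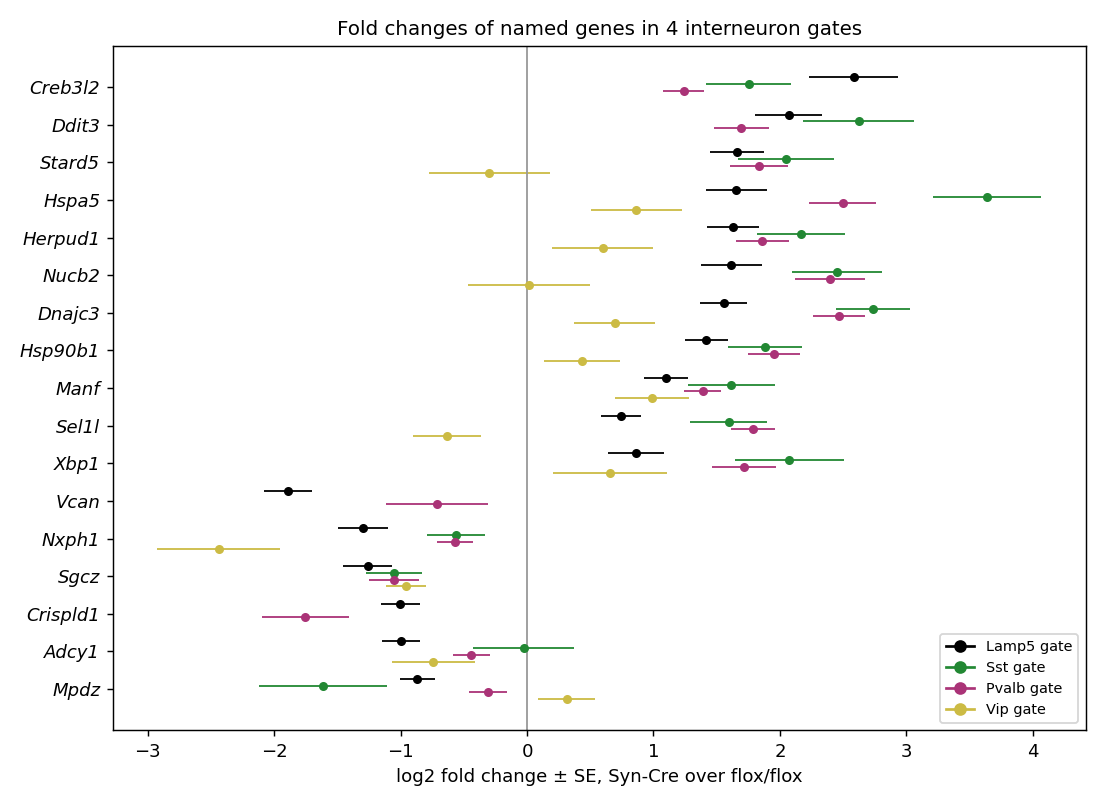
Log2 fold changes with standard errors (horizontal axis) of 17 named genes in the Lamp5, Sst, Pvalb and Vip gates, each from its own fit over 4 libraries; a missing point means that the gene was too low to be tested in that gate. *Dnajc3* is at 1.56 in the Lamp5 gate and 2.46 in the Pvalb gate, and only *Sel1l* among the genes drawn passed the test of the difference between these 2 gates.

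For 6 of the 8 genes named here for large differences from *Pvalb* nuclei, the fold changes of the separate fits had opposite signs. *Pard3b*, a cell polarity gene, had 242, 102, 83 and 61 UMIs in Lamp5 interneuron nuclei and 104, 35, 225 and 142 UMIs in *Pvalb* nuclei (difference in log2 fold change -2.87 ± 0.24, adjusted p = 4.24e-06). *Cntnap5b*, a contactin-associated protein, had 140, 56, 254 and 169 UMIs in Lamp5 interneuron nuclei and 692, 414, 238 and 283 in *Pvalb* nuclei (2.05 ± 0.22, adjusted p = 0.000160). Counts per library differ with the number of nuclei, and the test allows for this. *Htr2c*, a serotonin receptor, had 73, 57, 276 and 54 UMIs and 121, 91, 13 and 20 UMIs (3.64 ± 0.44, adjusted p = 0.000492). In Lamp5 interneuron nuclei its high value came from *Sel1L* Syn-Cre replicate 1, while replicate 2 was near the controls. *Ror1*, a receptor tyrosine kinase-like protein, differed by 3.18 ± 0.49, and the unnamed transcripts *Gm30382* and *Gm29514* by 2.27 ± 0.36 and 1.90 ± 0.39. In the other direction, *Ddr2*, a collagen receptor, differed by -2.14 ± 0.32. *Ddr2* had the same sign in both, with log2 fold changes of 0.81 in Lamp5 interneuron and 3.04 in *Pvalb* nuclei. *Mbp* differed by -2.42 ± 0.48 (adjusted p = 0.0365), with 280, 67, 132 and 51 UMIs in *Pvalb* nuclei. It is an oligodendrocyte marker that was lower along with the others tested in Lamp5 interneuron nuclei. Its log2 fold change was 0.07 among members with at most 1 oligodendrocyte-marker UMI, a choice that limits *Mbp* itself. Against *Vip* nuclei, *Bcar3*, an adaptor of integrin signalling, had 6, 8, 29 and 24 UMIs in Lamp5 interneuron nuclei and 63, 51, 24 and 17 in *Vip* nuclei (3.33 ± 0.47, adjusted p = 0.0127).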

How the data were processed

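Nuclei were isolated, sorted and sequenced with the 10x Genomics 3′ v3 kit. The authors ran Cell Ranger (version 6.1.0 and build GRCm38 per the submitters' processing notes) and deposited raw UMI counts of 32286 features per barcode. Whether introns were counted is not given in the sources used here. Nuclei were kept above 600 genes and below 5% mitochondrial UMIs. Scrublet marked doublets, which were left out only as an alternative. UMIs were summed per library and gate and tested in edgeR 4.0.16 (filterByExpr, TMM, quasi-likelihood F test, Benjamini-Hochberg adjustment over all genes tested, threshold 0.05). DESeq2 1.42.0 was an alternative. The nuclei, gene lists and tests were chosen with earlier results of these data known. Genes named are the 10 that passed with the largest fold change each way, at least 20 UMIs and no overlap between labels, list genes past the threshold, a fixed set of ERAD, UPR and serine genes, and for each interaction the 5 with the largest difference in each direction. Any other gene was chosen after its values were seen. A zero group was set to 3 UMIs for a bound, which leaves the median of the ERAD list as it is, because *Derl3* remains above it. Members were clustered with scanpy 1.11.5 (Leiden, resolution 0.4, 15 components). Positions and overlaps are from GENCODE vM21. Each library is 1 mouse, and intervals of shares cover counting error only. A few of the genes that this rule names are not reported here.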

Additional observations from a re-analysis of the deposited data

Results flagged for a closer look

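Differences between the Lamp5 and *Pvalb* nuclei in the response to the label, tested as an interaction in edgeR with library as a block, were past the threshold for 8 genes given here. In log2 units, Lamp5 minus *Pvalb*, they were 3.64 for *Htr2c*, 3.18 for *Ror1*, 2.27 for *Gm30382*, 2.05 for *Cntnap5b*, 1.90 for *Gm29514*, -2.87 for *Pard3b*, -2.42 for *Mbp* and -2.14 for *Ddr2*. *Mbp* was lower in Lamp5 interneuron nuclei along with the other oligodendrocyte markers tested, and the part of these in its difference was not tested. Against *Vip* nuclei, *Bcar3* differed by 3.33. *Pard3b* was also among the 10 leading genes of the *Lhx6* cluster of Lamp5 interneuron nuclei, of which the libraries held 45, 19, 14 and 17 nuclei, and the part of this in its difference was not tested.

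Cre transcripts were found in a library labelled as a control, where 21 UMIs lay in the 154 Lamp5 interneuron nuclei of *Sel1L* flox/flox replicate 1 and 0 in the 123 of replicate 2. *Derl3* had no UMI in the Lamp5 interneuron nuclei of either. In the *Pvalb* gate it had 5 UMIs in replicate 1 and 0 in replicate 2. A *Derl3* UMI was found in 40 of 4186 and 20 of 2350 nuclei of their excitatory gates.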

How the results depend on the processing

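The count of changed genes in Lamp5 interneuron nuclei (20, of which 10 higher, 10 lower and 8 in the ERAD, ER folding and UPR lists) moved by over 1.5 times under several settings. DESeq2 called 51 (7 higher, 44 lower), with 1 list gene, *Hsp90b1*, the only 1 of the 8 to which it gave an adjusted p. Testing every gene with a UMI called 0. Without Scrublet doublets, 6 passed (5 higher, 1 lower, 5 of the lists), all among the 20: *Creb3l2*, *Derl3*, *Dnajc3*, *Herpud1*, *Hsp90b1* and *Vcan*. Thinning to 1199126 UMIs called 42 (17 and 25). Chosen after seeing the data, members with fewer than 3 *Meis2* UMIs gave 51 (24 and 27), members with fewer than 2 *Cnr1* UMIs gave 20 lower and 5 list genes, and members with at most 1 oligodendrocyte-marker UMI gave 16 lower genes and turned *Mbp* to 0.065. Leaving out 1 library gave 54 to 299 genes (23 to 171 higher, 13 to 128 lower, 9 to 17 of the lists), the lone library being assumed to vary like the other group. Of the 20 genes, 16 passed without *Sel1L* Syn-Cre replicate 2, and all 20 without each of the other libraries. With a replicate block, 123 passed (54 and 69, 15 of the lists, all 20 among them, and *Sel1l* at an adjusted p of 0.0413), which is also a block on sex. The labels tie no numbers to pairs, and deviations of same-numbered libraries correlated at -0.04 over 4129 genes. RLE, the legacy test, 10 counts in every library, 4 panel genes and 200 genes gave 18 to 21. They kept 20, 18, 16, 15 and 20 of the 20 genes, in that order. With 4 panel genes, *Creb3l2*, *Gjc3*, *Crispld1*, *Adcy1* and *Mpdz* did not pass. Members with no *Lhx6* UMI, also chosen after seeing the data, gave 16, of which 15 were among the 20.

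The difference in the share of Lamp5 interneuron nuclei (2.25 points) reversed to -1.51 with 4 panel genes, and lay between -0.94 and 5.45 with 1 library left out, below 0 without *Sel1L* flox/flox replicate 1. The difference in the share with a *Derl3* UMI was 5.58 points at 2000 UMIs, 13.3 at 4000 and 21.8 unthinned. Against *Sst*, thinning to 293183 UMIs gave 12 genes. Against *Pvalb* (41), DESeq2 gave 4, 4 panel genes 17, thinning 13, and 1 library left out 11 to 124. Against *Vip* (2), DESeq2, 10 counts in every pseudobulk and thinning gave 0, 4 panel genes gave 4, and 1 library left out 0 to 26. Causes were not tested.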
